A study of Saccharomyces cerevisiae with 16 samples.

Results

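The genes described here encode the subunits of the yeast proteasome together with RPN4, the transcription factor that activates them. They were taken from a fixed list of identifiers: 14 genes of the 20S core (7 α and 7 β subunits), 19 genes of the 19S cap (6 ATPases, 4 other base subunits and 9 lid subunits) and RPN4 (YDL020C). All 34 were listed in each of the 4 deposited tables, out of 6834 features for 3MBPP1 in WT, 6258 for 3MBPP1 in hrr25as and 6760 in each of the 2 CMK tables.

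The proteasome degrades proteins tagged with ubiquitin. Its core is a barrel of stacked rings whose α subunits form the gates and whose β subunits hold the proteolytic sites. The cap binds ubiquitin chains, removes them in the lid, and unfolds the substrate with a ring of ATPases in the base. In Saccharomyces cerevisiae the genes of both parts are controlled by Rpn4 through the proteasome-associated control element, and Rpn4 is itself a short-lived substrate of the proteasome, so that its protein accumulates when degradation is slow.

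The study sequenced total RNA depleted of ribosomal RNA from yeast treated for 1 hour, in 16 samples forming 8 groups of 2. The treated groups were WT, hrr25as and hrr25is cells treated with 3MBPP1 (WT and hrr25as) or with CMK (WT and hrr25is), each set against the same strain in DMSO, with 3MBPP1 named in the sample titles but not in the treatment protocol, and with no dose given. Every strain was his3Δ leu2Δ ura3Δ with the chromosomal HRR25 replaced by kanMX4, so by their labels WT cells too carried the kinase gene on a plasmid: pRS316-HRR25 in WT, pRS315-hrr25-I82G in hrr25as and a plasmid with both I82G and I23C in hrr25is. HRR25 is the yeast casein kinase 1 gene, and 3MBPP1 is an ATP-competitive inhibitor made for kinases with an enlarged pocket. The labels do not say whether the 2 samples of a group were grown apart, and the p-values below carry only the spread between them, which may be technical.

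Each deposited table gives a mean normalised count (reads divided by the library's size factor) for a condition A and a condition B. Fold changes are condition B over condition A throughout, and the file headers do not say which of them is DMSO, so no direction below is a direction of the inhibitor. The 2 libraries of each condition were recovered as whole reads from the means and are called the smaller and the larger by their size factor. They held 4275991 to 34122412 counted reads, and each member had at least 249 reads in every library. In a bulk culture a change in every cell and a change in a share of the cells cannot be told apart.

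One library stood in 2 tables. The larger condition B library of the hrr25is table held the same reads as the larger condition B library of the CMK table of WT for all 6760 features, whereas the next most alike pair of libraries had equal reads for 1.79% of features, so there were 15 distinct libraries. The plasmid markers of this library were like those of the CMK libraries labelled WT: URA3, carried by pRS316, stood at 1629 RPM (reads scaled to library depth), against 2.48 to 5.23 in the other 3 hrr25is libraries and 1541 to 1842 in the CMK table of WT. LEU2, carried by pRS315, stood at 0.44 RPM there, against 75.4 to 85.8 in the other hrr25is libraries. The library labelled hrr25is therefore goes against its label, and the counts and medians for hrr25is are given with and without it.

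The 4 libraries labelled WT in the 3MBPP1 table go against their label too. LEU2, deleted in all strains and not on pRS316, stood at 38.6 to 54.4 RPM in them, against 0.13 to 1.67 RPM in the CMK libraries labelled WT. URA3, the marker of pRS316, stood at 91.0 to 120.1 RPM, against 1541 to 1842 RPM in those CMK libraries, and HRR25 at 117 to 166 RPM, against 691 to 864 RPM. The hrr25as libraries had 71.5 to 99.4 RPM of LEU2 and 123 to 166 RPM of HRR25, and URA3 was not listed in their table. No library of the 3MBPP1 table of WT could be set apart on these markers, so WT with 3MBPP1 means below the libraries labelled so, and what strain they hold was not tested. The comparison of hrr25as with WT rests on the same labels.

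The control element is named for the proteasome genes, and 27 of the 33 core and cap promoters held its letters. A high share in these promoters therefore tests nothing and is given as a description. Promoters were read from the R64 assembly, from 250 bases before to 50 bases after each gene's annotated start, and searched on both strands for GGTGGCAAA. It was present in 12 of 14 core promoters (85.7%) and in 15 of 19 cap promoters (78.9%), against 72 of all 6001 protein-coding promoters (1.2%), a count that includes these genes. The shorter GGTGGCA, which is part of the first motif, was present in the same number of core and cap promoters and in 173 of all promoters (2.88%). The windows below are those of the 3 members that passed the test in condition B of the 3MBPP1 table of WT (PRE3, PUP2 and RPT1), of the catalytic subunit PRE2 and the deubiquitinase RPN11, and of the ubiquitin gene UBI4. Each runs along the gene's own strand with the element, or its reverse complement, in capitals.
PRE3 (chrX:435025-435073, plus strand): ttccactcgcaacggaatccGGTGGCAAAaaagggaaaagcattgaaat
PUP2 (chrVII:999216-999264, minus strand): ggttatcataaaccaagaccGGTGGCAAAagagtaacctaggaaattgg
RPT1 (chrXI:174038-174086, plus strand): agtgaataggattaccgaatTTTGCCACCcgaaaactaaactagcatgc
PRE2 (chrXVI:732174-732222, plus strand): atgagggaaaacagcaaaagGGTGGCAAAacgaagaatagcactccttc
RPN11 (chrVI:153249-153297, plus strand): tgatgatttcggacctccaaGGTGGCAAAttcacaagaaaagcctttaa
UBI4 (chrXII:65339-65387, minus strand): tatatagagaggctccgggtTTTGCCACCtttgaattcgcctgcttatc

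In core and cap promoters the motif began 84 to 183 bases before the gene, with a median of 120, and it lay on the gene's own strand in 19 of 27 cases. In the other 45 promoters it lay anywhere in the window, from 244 bases before to 33 bases after the gene start. Of those 45, 19 fell within the range of the proteasome genes. Each promoter was searched by itself, so a site between divergent genes can count for both. Whether that holds for neighbours such as NOP14 and RPN5 was not tested. The core and cap promoters without these letters were those of PRE5, PUP1, RPN8, RPN10, RPN13 and SEM1, and the RPN4 promoter had none either. A match of letters is a description and not a binding site.

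**Figure D1:**
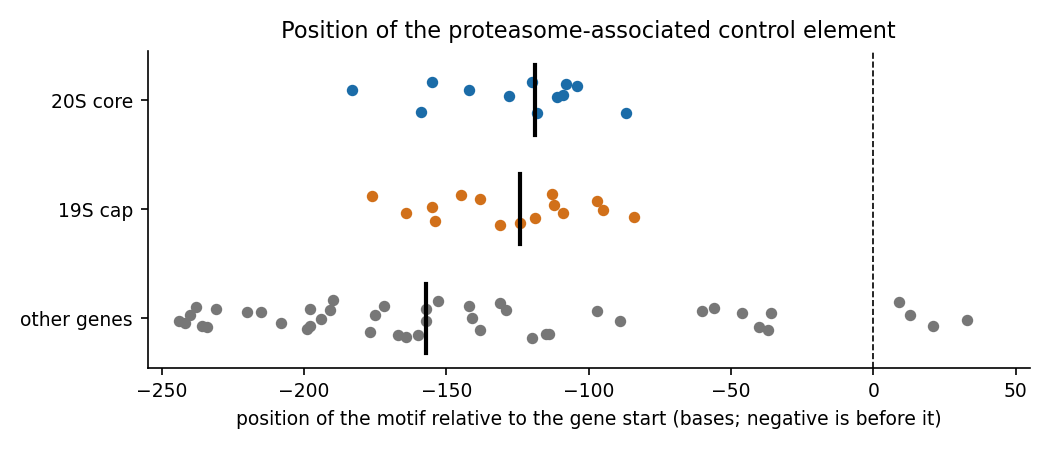
Position of GGTGGCAAA, on either strand, relative to the annotated gene start (bases, negative before the gene) in the promoters that hold it. Each point is a promoter and black bars are medians: the 12 core and 15 cap matches lie between 84 and 183 bases before the gene, and the 45 of other genes spread over the whole window.

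In the cells labelled WT with 3MBPP1, every proteasome gene stood higher in condition B. All 34 members had a positive log2 fold change, and 33 of them had both condition B libraries above both condition A libraries, an arrangement found for 27% of all features in that direction and for 26.7% in the other, which no member showed. Members passing the authors' deposited adjusted p of 0.05 were few. Of these, 3 were higher in condition B (PRE3, PUP2 and RPT1), against 2.78% of all features, and 0 were lower, against 4.59%. At an unadjusted deposited p under 0.05 there were 26 members, all higher in condition B, against 7.52% of all features. The median log2 fold change was 0.48 over the core and 0.39 over the cap, beside -0.00 over all features.

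PRE3 (YJL001W, chrX:435163-435926) encodes the β subunit with caspase-like activity. It had normalised counts of 3146 and 2953 in condition B, against 2131 and 1882 in condition A. Both condition B libraries lay above both condition A libraries, and the authors' deposited table lists a log2 fold change of 0.60 with an adjusted p of 0.0127. limma's test on the recovered reads gave 0.60 ± 0.14 (SE, 2 libraries a condition) and a Benjamini-Hochberg adjusted p of 0.039.

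PUP2 (YGR253C, chrVII:998358-999140), an α subunit, had normalised counts of 3663 and 3161 in condition B, against 2481 and 2197 in condition A. The groups did not overlap, and the authors' deposited table gives PUP2 a log2 fold change of 0.54 and an adjusted p of 0.0355. With limma its adjusted p was 0.0694. The α subunits were alike in this table, between 0.43 (PRE10) and 0.54 (PUP2), with a median of 0.50. PRE9, the only α subunit that yeast can live without, had a log2 fold change of 0.51 and a deposited adjusted p of 0.0561.

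The β subunits spread more widely, with a median of 0.41. PUP1, the subunit with trypsin-like activity, stood lowest of the core at 0.26: its normalised counts were 1527 and 1671 in condition B, against 1362 and 1307 in condition A, and its deposited adjusted p was 0.545. PRE2, the subunit with chymotrypsin-like activity, had 2109 and 2360.2 in condition B, against 1807 and 1735 in condition A, a log2 fold change of 0.34 with a deposited adjusted p of 0.319. The 3 catalytic β subunits thus included the core's highest and its lowest member, with no overlap of libraries in any of them.

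In the cap, RPT1 (YKL145W, chrXI:174213-175616), an ATPase of the base, had the highest log2 fold change, 0.50. Its normalised counts were 3267 and 3770.2 in condition B, against 2569.7 and 2403 in condition A. The groups lay apart, and the authors' deposited table gives an adjusted p of 0.0422, where limma gave 0.0891. The ATPases had a median of 0.42, and RPT2, the ATPase best known for opening the core's gate, stood at 0.43 with a deposited adjusted p of 0.102.

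RPN2, a large scaffold subunit of the base, was the lowest of all members at 0.12. It had normalised counts of 4696 and 5443 in condition B, against 4969 and 4379 in condition A, and was the one member whose libraries overlapped. Its fellow scaffold RPN1 stood at 0.39 (deposited adjusted p = 0.165) and the ubiquitin receptor RPN10 at 0.40 (0.18). The 9 lid genes had a median of 0.35 and none passed the deposited test. Among them the deubiquitinase RPN11 stood at 0.39 (deposited adjusted p = 0.234) and the small subunit SEM1 at 0.46 (0.0951).

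RPN4 (YDL020C, chrIV:415113-416708) had normalised counts of 1146 and 1348 in condition B of this table, against 857 and 1044 in condition A. Its libraries did not overlap, but the gap between them was small, and its log2 fold change of 0.39 had a deposited p of 0.0375 and an adjusted p of 0.268. The median over all 34 members was 0.42.

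The choice of test decided which members passed. limma on the recovered reads called 4 members higher in condition B, against 3.47% of all features: PRE3, PRE9 and PRE1 of the core and the lid gene RPN12 of the cap, with adjusted p-values of 0.039 to 0.0493. PRE1 and RPN12 are named because they passed this test. Only PRE3 passed both tests. Without the smaller or the larger condition A library limma called 0 members, against 0.468% and 0.863% of all features higher. Without the smaller condition B library it called 6, against 5.28%, and without the larger it called 7, against 3.75%, PRE3 among them both times.

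**Figure D2:**
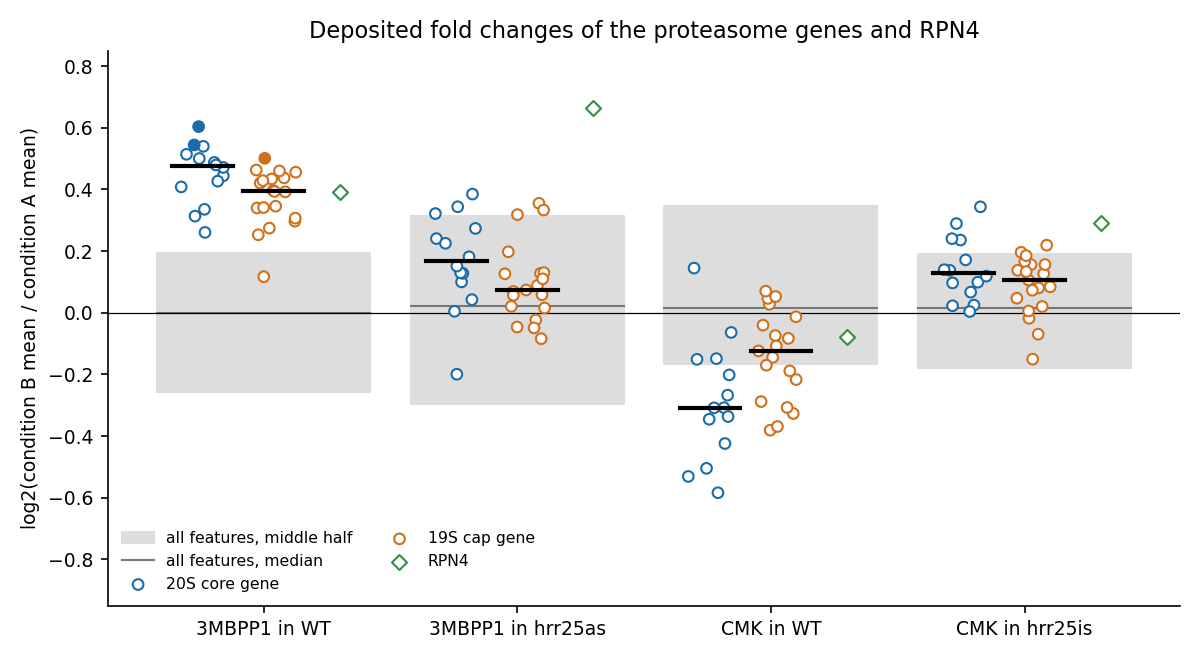
Deposited log2 fold change, condition B over condition A, of the 14 core genes (blue), 19 cap genes (orange) and RPN4 (green) in the 4 tables. Filled symbols passed the deposited adjusted p of 0.05, black bars are medians, and grey bands run from the lower to the upper quartile of all features: in the 3MBPP1 table of WT all members but RPN2 lie above the band, and in the CMK table of WT most core genes lie at its lower edge or below it.

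In hrr25as cells with 3MBPP1, the proteasome genes lay close to the rest of the table. The median log2 fold change was 0.17 over the core and 0.07 over the cap, beside 0.02 over all features, and 29 of 34 members were positive. The authors' deposited adjusted p called 0 members, against 1.2% of all features called higher and 3.12% called lower in condition B. At an unadjusted deposited p under 0.05 there was 1 member, RPN4, against 11.6% of all features. limma likewise called 0 members, against 189 of all 6258 features in either direction. At limma's unadjusted p under 0.05 there was 1 member, against 18.2% of all features. Both condition B libraries lay above both condition A libraries for 8 members, close to the 24.4% of all features, and below them for 0 members, against 23.9%.

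RPN4 had the highest log2 fold change of the members in this table, 0.66. Its normalised counts were 1156 and 852 in condition B, against 704 and 564 in condition A. The libraries lay apart, with a deposited p of 0.0318 and an adjusted p of 0.336. limma gave 0.66 ± 0.23 (SE, 2 libraries a condition) with an adjusted p of 0.21, and with the larger library of condition B left out it gave 0.89 with an adjusted p of 0.0361, the 1 member called in that fit, against 3.15% of all features called higher.

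The 2 condition B libraries of hrr25as differed from each other by more than the conditions did. In the smaller one the core genes averaged 0.31 above their 4-library mean (SD over genes 0.07), and in the larger one they averaged -0.17 (SD 0.13), below both condition A libraries at -0.03 and -0.12. The smaller condition B library was the highest of the 4 for 29 of 34 members, and the larger was the lowest for 19 of 34. Over all features those shares were 26.9% and 24.8%. With the smaller condition B library left out the limma medians were -0.11 for the core and -0.15 for the cap, and with the larger left out they were 0.39 and 0.26.

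PRE7, a β subunit without proteolytic activity, was the lowest member at -0.20. It had normalised counts of 850.2 and 572 in condition B, against 901 and 732 in condition A, so its libraries overlapped. PRE3 showed the spread as well, with 1491 and 932 in condition B, against 1159 and 1058 in condition A (log2 fold change 0.13, deposited adjusted p = 1). PUP1 was the highest core gene at 0.39 (deposited adjusted p = 0.907), with 1792 and 1257 in condition B, against 1185 and 1149.9 in condition A. In the cap the range ran from RPN1 at -0.08 to RPT1 at 0.36, and PRE9, PRE2, RPT2, RPN10, RPN11 and SEM1 stood at 0.27, 0.04, 0.02, 0.20, 0.09 and 0.32, each with a deposited adjusted p of 1.

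**Figure D3:**
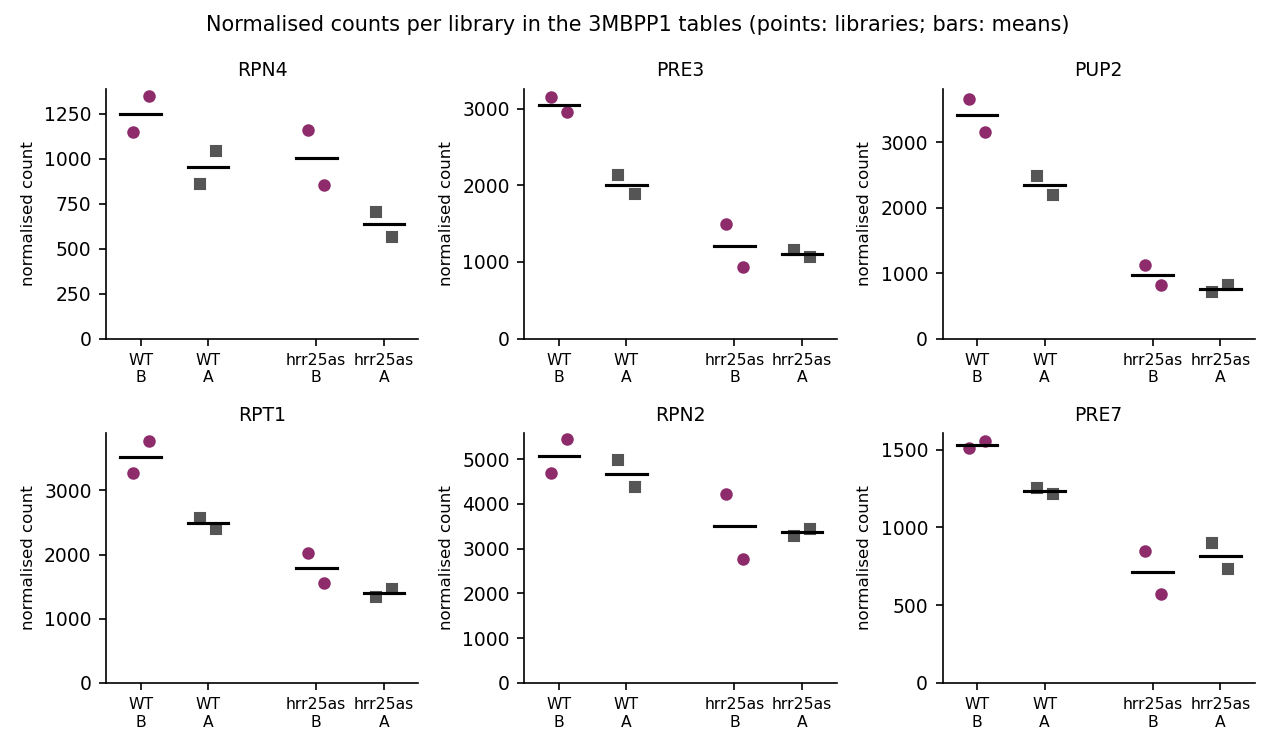
Normalised counts (reads divided by size factor, axis from 0) of 6 members in each recovered library of the 3MBPP1 tables, condition B left of condition A in WT and in hrr25as, with bars at the means. PRE3, PUP2, RPT1 and RPN4 have both WT condition B libraries above both condition A libraries, RPN2 does not, and in hrr25as only RPN4 and RPT1 of the 6 keep the conditions apart.

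The difference between the strains was tested directly. In limma's model over both 3MBPP1 tables the effect in hrr25as minus that in WT was negative for 32 of 34 members, with a median of -0.29 over the core and -0.29 over the cap, beside -0.02 over all features. None of the 34 passed a Benjamini-Hochberg adjusted p of 0.05, and 0 were at an unadjusted p under 0.05, against 0.0801% and 10.9% of all features. The smallest adjusted p among the members was 0.543. Their standard errors ran from 0.21 to 0.40 with a median of 0.28, about the size of the median difference. For RPN4 the difference was 0.28 ± 0.29 (SE) with an adjusted p of 0.816. The comparison supposes that condition A received one treatment in WT and in hrr25as, which the headers do not state. Across the 33 core and cap genes the effects in WT and hrr25as had a Spearman correlation of 0.46 and a Pearson correlation of 0.39, a description over genes that share libraries and differ in length.

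In WT cells with CMK most proteasome genes had lower values in condition B, and none passed a test. Median log2 fold changes were -0.31 for the core and -0.12 for the cap, beside 0.01 over all features, and 29 of 34 members were negative. The authors' deposited adjusted p called 0 members, against 0.133% of all features called higher and 0% called lower. At an unadjusted deposited p under 0.05 there were 0 members, against 1.01%. limma called 0 members and 0 of all 6760 features. At its unadjusted p under 0.05 there were 0 members, against 1.38% of all features. Both condition B libraries lay below both condition A libraries for 8 members, 6 of the core and 2 of the cap, against 12.8% of all features, and above them for 0 members, against 12.6%.

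The β subunits had a median of -0.42 and the α subunits of -0.15. PRE1, a β subunit, was the lowest member at -0.58, with normalised counts of 2180.3 and 2909.97 in condition B, against 3426 and 4203 in condition A. Its libraries lay apart, and its deposited adjusted p was 1. PRE3 had 2194 and 4813 in condition B, against 5517 and 4423 in condition A, and there a single library was low. PUP1 had 1937 and 2655 in condition B, against 3259 and 2426 in condition A (log2 fold change -0.31), and PRE2 had 2881 and 4056 in condition B, against 4422 and 3556 in condition A (-0.20). In all 3 catalytic subunits the smaller condition B library was the lowest of the 4 and the larger lay among the condition A libraries. PUP2 was the highest core gene at 0.14, with 3520.3 and 4385 in condition B, against 3485 and 3665 in condition A. In the cap the range ran from RPN8, a lid subunit, at -0.38 to RPN2 at 0.07, and every member had a deposited adjusted p of 1.

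One library was low for most members. The smaller condition B library was the lowest of the 4 libraries for 28 of 34 members and the highest for 0, while over all features it was lowest for 39.5% and highest for 40.2%. In it the core averaged -0.40 (SD over genes 0.22) and the cap -0.24 (SD 0.22) relative to the 4-library mean, against 0.09 for both in the larger condition B library, and against 0.19 and 0.12 for the core in condition A. It was also the least deep of the table, with 9568820 counted reads, and the part of depth in the result was not tested. Without it the core median was -0.08 with limma. Without the larger condition B library instead, the core median was -0.56 and limma called 3 members lower, PRE3, PRE4 and RPN9, the last 2 of which are named for that call, against 4.23% of all features called lower in that fit. RPN4 stood at -0.08 (deposited adjusted p = 1), with 1334 and 1877 in condition B, against 1842 and 1553 in condition A, and its libraries overlapped.

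**Figure D4:**
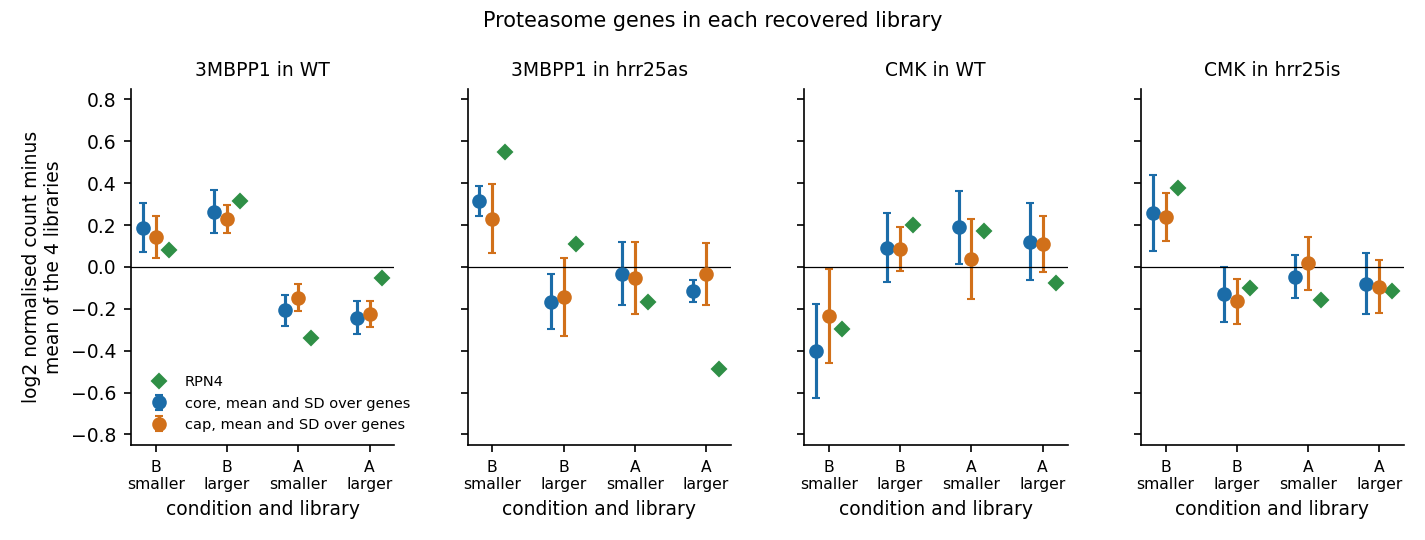
Log2 normalised count in each recovered library relative to the mean of the table's 4 libraries, averaged over the 14 core genes (blue) and the 19 cap genes (orange, bars are SD over genes) and for RPN4 (green), condition B left of condition A. Both condition B libraries of WT with 3MBPP1 lie above both condition A libraries, whereas in the other tables the smaller condition B library stands apart from the rest. The larger condition B library of CMK in hrr25is is the one that also stands in the CMK table of WT.

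In hrr25is cells with CMK, as deposited, the medians were 0.13 for the core and 0.11 for the cap, beside 0.01 over all features, and 31 of 34 members were positive. The deposited test called 0 members, against 0.0148% of all features higher and 0.0296% lower, and 0 members had an unadjusted p under 0.05, against 2.28%. limma called 0 members and 0 of all 6760 features. At its unadjusted p under 0.05 there were 0 members, against 5.37% of all features. Both condition B libraries lay above both of condition A for 5 members, against 17.4% of all features, and below them for 1, RPN1, against 17.7%. PRE6, an α subunit, was highest at 0.34, with normalised counts of 4541 and 2624 in condition B, against 2985 and 2661 in condition A, so that the shared library was its lowest. RPN1 was lowest at -0.15, with 18549 and 18862 in condition B, against 19039 and 22479 in condition A. The catalytic subunits PRE3, PUP1 and PRE2 stood at 0.17, 0.14 and 0.02, and RPT1 led the cap at 0.22. The smaller condition B library was the highest of the 4 for 30 of 34 members, against 34.2% of all features, and the shared library was the lowest for 18 of 34, against 23.1%.

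With the library that also stands in the WT table left out, 1 condition B library remained against 2 of condition A, and limma then takes the lone library to vary like the others. Its medians were 0.23 for the core and 0.28 for the cap, beside -0.00 over all features, and 33 of 34 members were positive. The remaining condition B library lay above both condition A libraries for 30 members (88.2%) and below them for 1, against 39.9% and 39.6% of all features. One member, PRE6, passed limma's adjusted p of 0.05, against 5.62% of all features called higher. PRE6 had a normalised count of 4541 in that condition B library, against 2985 and 2661 in condition A, a log2 fold change of 0.69 ± 0.23 (SE) with an adjusted p of 0.0281. RPN4 had 2613 there, against 1809 and 1859 in condition A (0.51 ± 0.22, adjusted p = 0.103), and with both condition B libraries it stood at 0.29 (deposited adjusted p = 1).

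Between the strains, the CMK effect in hrr25is minus that in WT was positive for 32 of 34 members with the shared library counted once, in WT. The median difference was 0.68 over the core and 0.43 over the cap, beside 0.0032 over all features. limma called 0 members and 0% of all features, and 5 members, all of the core, had an unadjusted p under 0.05: PRE6, PRE10, PUP3, PRE1 and PRE7, named for that count after their values were seen, against 5.22% of all features. Each of these had an adjusted p of 0.946. For RPN4 the difference was 0.62 ± 0.35 (SE) with an adjusted p of 0.986. The WT term of this difference contains the low condition B library described for CMK in WT.

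The order of core and cap was not the same in every table. Core median minus cap median was 0.08 for 3MBPP1 in WT, 0.09 for 3MBPP1 in hrr25as, -0.18 for CMK in WT and 0.02 for CMK in hrr25is, where it turned to -0.050 without the shared library. Of the 266 pairs of a core and a cap gene, the core gene had the higher log2 fold change in 198, 180, 69 and 164 in that order, and in 133 for hrr25is without the shared library. The interquartile ranges within the core and the cap were 0.098 and 0.11 in the 3MBPP1 table of WT, and 0.24 and 0.23 in the CMK table of WT. These gaps have no test, since members are not replicates of a condition. In single libraries of the 3MBPP1 table of WT, core minus cap was 0.045 and 0.034 in condition B, against -0.062 and -0.017 in condition A, so that both condition B libraries lay above both condition A libraries. In the CMK table of WT it was -0.17 and 0.0039 in condition B, against 0.15 and 0.010 in condition A. In hrr25as with 3MBPP1 it was 0.084 and -0.022 in condition B, against 0.020 and -0.083 in condition A, so the conditions overlapped. In hrr25is with CMK it was 0.019 and, in the shared library, 0.032 in condition B. Condition A there had -0.065 and 0.014, so the conditions lay apart by little.

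Gene length differs between core and cap, and its relation with fold change was not the same in every table. Core genes are 597 (PRE1) to 867 (PRE10) bp long, all under 1000 bp, while cap genes run from 270 bp (SEM1) to 2982 bp (RPN1) and only 5 are under 1000 bp. In the 3MBPP1 table of WT the median log2 fold change was 0.09 over all protein-coding genes of 500 to 1000 bp and 0.01 over those of 1000 to 3000 bp, a gap of 0.08, the same to 2 decimals as that between core and cap. The 5 short cap genes had a median of 0.46, close to the core's 0.48, and the 14 longer ones 0.34. The short ones include SEM1 (270 bp) and RPN13 (471 bp), which lie below the 500 bp limit used for all genes. In the CMK table of WT the same gap over all genes was -0.06, against -0.18 between core and cap, and the 5 short cap genes stood at -0.07, closer to the rest of the cap than to the core. The Spearman correlation of fold change with length over the 33 core and cap genes was -0.48 in the 3MBPP1 table of WT and 0.36 in the CMK table of WT, as a description over genes that share libraries. It includes the gap between core and cap, and over the 19 cap genes alone it was -0.31 and 0.26. Over all protein-coding genes it was -0.12 and 0.07 in those tables. In hrr25as it was -0.41 over core and cap, -0.42 over the cap and 0.04 over all protein-coding genes. In hrr25is as deposited these values were -0.20, -0.24 and 0.11. The part of length in the gap between core and cap was not tested. In hrr25as with 3MBPP1 the gap between shorter and longer genes was -0.05, against 0.09 between core and cap. In hrr25is with CMK it was -0.055, against 0.02 between core and cap, and without the shared library it was -0.052, against -0.050.

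**Figure D5:**
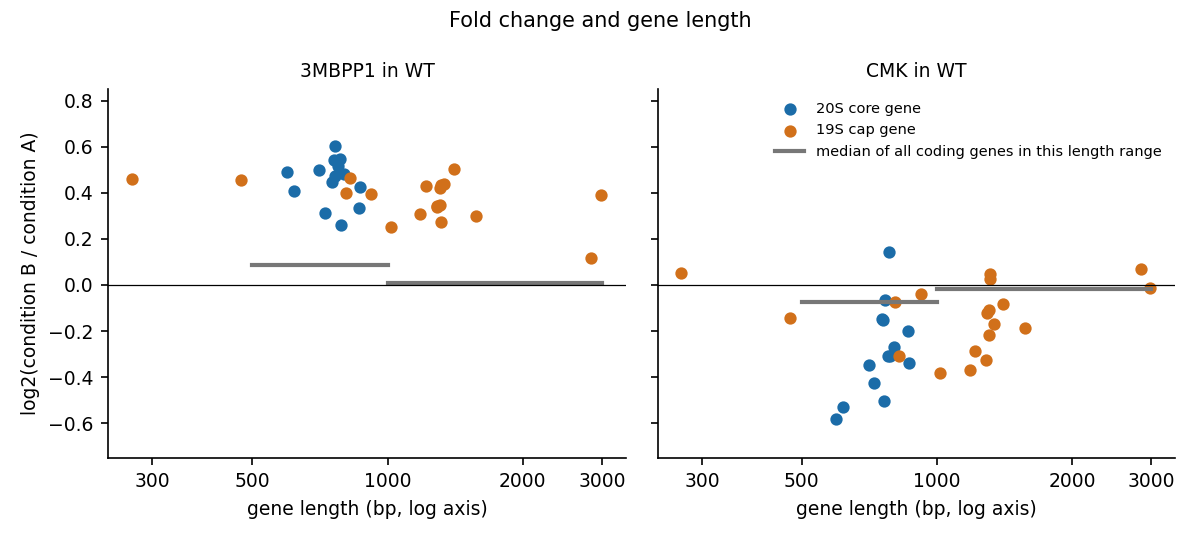
Deposited log2 fold change, condition B over condition A, against gene length (bp, log axis) for the 14 core genes (blue) and 19 cap genes (orange) in the 3MBPP1 and CMK tables of WT. Grey lines are the medians of all protein-coding genes of 500 to 1000 and of 1000 to 3000 bp: with 3MBPP1 every member lies above the lines, and with CMK most core genes lie below theirs.

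Fold changes of members with and without the control element's letters overlapped in every table. In the 3MBPP1 table of WT, the median log2 fold change was 0.43 over the 27 core and cap genes with the motif shown above, 0.43 over the 6 without it and 0.21 over the 44 listed of the other 45 genes with it, beside -0.00 over all features. In the hrr25as table those medians were 0.10, 0.26 and 0.25, in the CMK table of WT -0.19, -0.23 and -0.05, and in hrr25is with CMK 0.12, 0.12 and 0.08, or 0.28, 0.27 and 0.21 without the shared library. PRE5, a core gene without the letters in its window, stood at 0.50 in the 3MBPP1 table of WT (deposited adjusted p = 0.0538).

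Levels per kilobase differed less within the core than across the cap. In the 3MBPP1 table of WT, the mean normalised count per kb ran from 1866 (PUP1) to 3672 (PUP2) in the core, a 1.97-fold range, and from 1019 (RPN9) to 10188 (SEM1, the shortest member) in the cap. The core range was 2.18-fold in the CMK table of WT and 2.31-fold in the hrr25is table, or 2.52-fold there without the shared library. RPN4 was the lowest of all 34 members per kb in 3 tables, at 688 in the 3MBPP1 table of WT, and in the hrr25as table RPN11 stood lower, at 472 against 513 for RPN4.

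Other genes of the pathway were counted from 3 lists. Of 16 genes for assembly factors and accessory proteins, 3 passed the deposited test as higher in condition B of the 3MBPP1 table of WT and 0 as lower, against 2.78% and 4.59% of all features, with a median log2 fold change of 0.35. TMA17, a chaperone of cap assembly, had 1421 and 1284 normalised counts in condition B, against 796 and 760.2 in condition A (log2 fold change 0.80, deposited adjusted p = 0.000961). UMP1, the maturation factor of the core, had 963 and 1199 in condition B, against 744 and 683 in condition A (0.60, 0.0232). SPG5, a regulator of proteasome assembly in stationary phase, stood at 0.66 with a deposited adjusted p of 0.0131. Libraries of all 3 lay apart. With the size factors limma called 4 of the 16, these 3 and FUB1, against 3.47% of all features called higher. FUB1, named for this call, stood at 0.63 with limma (adjusted p = 0.0448), and its deposited adjusted p was 0.0812.

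Of 24 genes for ubiquitin and its shuttles, enzymes and segregase, 2 passed as higher in the same table and 0 as lower, against the same 2.78% and 4.59% of all features, with a median of 0.15. UBI4, the stress-inducible polyubiquitin gene whose promoter is shown above, had 5402 and 6396 normalised counts in condition B, against 3126 and 3152 in condition A (log2 fold change 0.91, deposited adjusted p = 6.92e-06). DSK2, a shuttle that carries ubiquitinated proteins to the proteasome, stood at 0.62 with a deposited adjusted p of 0.0195. CDC48, the segregase, had 12245 and 15537 in condition B, against 9724 and 9018 in condition A (0.57, 0.0572). Scaled by total reads, limma's adjusted p was 0.0753 for DSK2 and 0.0564 for UMP1, so both calls were lost, and without either condition A library none of the 5 called pathway genes passed. Of 6 regulators of RPN4, 0 passed the deposited or limma's test, 0 had an unadjusted p under 0.05 with either, and YAP1 stood at 0.14 (deposited adjusted p = 0.86).

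With every library kept, none of these 46 genes passed the deposited test or limma's in the other 3 tables. The deposited test called 1.2% of all features higher and 3.12% lower in hrr25as. In WT with CMK it called 0.133% and 0%, and in hrr25is with CMK 0.0148% and 0.0296%. limma called 189 of 6258 features in hrr25as and 0 of 6760 in each CMK table. At an unadjusted deposited p under 0.05 there were 2 of the 46 genes in hrr25as, TMA17 and the RPN4 regulator MSN4, against 11.6% of all features. By limma there were 3 of them at an unadjusted p under 0.05, against 18.2%. In the CMK tables there were 0 by either test. The shares of all features there were 1.01% and 1.38% in WT, and 2.28% and 5.37% in hrr25is, deposited and limma in turn. TMA17 had 301 and 353 in condition B of hrr25as, against 176 and 215 in condition A (log2 fold change 0.74, deposited adjusted p = 0.368). UBI4 had 2488 and 2320.4 there, against 1148 and 1836 in condition A (0.69, deposited adjusted p = 0.435). UMP1, CDC48 and YAP1 stood at 0.35, 0.42 and 0.19 in hrr25as, at -0.13, -0.07 and -0.02 in WT with CMK, and at 0.09, 0.05 and 0.39 in hrr25is with CMK, and UBI4 at -0.40 and 0.51 in those 2 CMK tables. Without the shared library, limma called 2 of the 46 genes higher in hrr25is with CMK, against the 5.62% of all features given above. UBI4 had 11053 in condition B, against 6437 and 5602 in condition A (0.88 ± 0.27 SE, adjusted p = 0.0143), and UBR2, a ubiquitin ligase of Rpn4 named for this call, stood at 0.59 (0.0481). UMP1, CDC48 and YAP1 then stood at 0.23, 0.21 and 0.54, none called.

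Scaling bears on all of these values. When libraries were scaled to their total reads, the all-feature median moved to 0.21 in the 3MBPP1 table of WT, 0.33 in hrr25as, 0.04 in WT with CMK and 0.31 in hrr25is. Relative to that shift the core and cap stood at 0.48 and 0.40 in the 3MBPP1 table of WT, at 0.12 and 0.04 in hrr25as, at -0.23 and -0.06 in WT with CMK, and at 0.11 and 0.11 in hrr25is. Of the 34 members, 34 lay above the shifted median in the 3MBPP1 table of WT, 26 in hrr25as, 7 in WT with CMK and 29 in hrr25is. With this scaling limma called 0 members in the 3MBPP1 table of WT. The share of all features called in that fit is not given here. Without the shared library the median of all features in hrr25is was 0.41, the core and cap stood at 0.24 and 0.30 relative to it, and 33 of 34 members lay above it. There limma called 29 members higher, against 18.1% of all features, a count that includes the shift.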

How the data were processed

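Total RNA from WT, hrr25as and hrr25is yeast was sequenced as 100 bp single-end reads. The submitters' processing notes name sacCer3 as build and, as tools, HTSeq 0.6.0, STAR 2.3.0 and CASAVA 1.8.2. Whether counting used the strand is not known here. The authors deposited, per comparison, a mean signal (average normalised count) over all libraries and one per condition. Their deposited fold is the ratio B over A, which the deposited log2 column repeats on a log scale. The deposited p-values, raw and adjusted, come from the authors' test, and an adjusted value under 0.05 was the main call.

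Whole reads per library were recovered from the deposited means: each mean is the average of 2 whole counts, each divided by its size factor; 100% of means had 1 solution, and the step was tested on simulated data. limma 3.58.1 with voom (R 4.3.3, Benjamini-Hochberg adjustment over all features) was fitted to these reads with the authors' size factors, as an alternative test within tables and as the test of differences between strains. It was tested on simulated data, in which the spread between libraries was a fixed setting. Of planted log2 changes of 0.5 it called 31.3% to 40.3% within tables. In the model of differences between strains it called 14.9% with 3MBPP1 and 8.96% with CMK. A count of 0 called members therefore does not show that changes of this size were absent. Promoters, gene lengths and positions came from the RefSeq R64 assembly, which is sacCer3. Python 3.11.15 with pandas 2.3.3 and scipy 1.17.1 did the rest.

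The members and lists were chosen with earlier results of these data known. Named genes were RPN4, members past the deposited threshold, the highest and lowest of core and cap in each table, 9 subunits and 4 pathway genes picked for their roles, pathway genes past the threshold, and genes that a sentence names for another call. Alternatives were scaling by total reads, quantile normalisation, a minimum of 10 reads in 2 libraries, leaving out each library, a z test of the deposited values for differences between strains, and, chosen after seeing the data, total reads without the library shared by 2 tables.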

Additional observations from a re-analysis of the deposited data

How the results depend on the processing

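No paired analysis was possible because the columns are condition means and the recovered libraries carry no replicate number, so no replicate block could be fitted. Left-out libraries leave 1 against 2, and limma then takes the lone library to vary like the others. In the 3MBPP1 table of WT, total-read scaling gave 0 members called, with core and cap medians of 0.69 and 0.61. Quantile normalisation gave 7, with a cap median of 0.47 and core minus cap of 0.015. The shares of all features called in these fits are not given here, so the counts 0 and 7 have no background. Leaving out each library gave 0 to 7 members, core medians of 0.37 to 0.49, cap medians of 0.33 to 0.41 and core minus cap of 0.033 to 0.15. In hrr25as with 3MBPP1, total reads gave 0.45 for the core, 0.37 for the cap, 0.091 for PRE7 and 0.20 for RPN1, the last 2 with the sign turned, and quantile normalisation gave 0.29 for the cap and 0.41 for RPN1. Leaving out each library gave 0 to 1 members, core medians of -0.11 to 0.39, cap medians of -0.15 to 0.26, core minus cap of 0.014 to 0.16, RPN4 at 0.45 to 0.89, PRE7 at -0.49 to 0.075 and RPN1 at -0.43 to 0.20. In WT with CMK, scaling by total reads turned RPN4 to 0.028. Leaving out each library gave 0 to 3 members (all lower), core medians of -0.56 to -0.078, core minus cap of -0.33 to -0.075, RPN4 at -0.34 to 0.15, PUP2 at -0.021 to 0.30 and RPN2 at -0.058 to 0.19. In hrr25is with CMK, total reads gave 0.42 for the core, 0.42 for the cap and 0.17 for RPN1, and quantile normalisation gave -0.026 for core minus cap and 0.26 for RPN1. Without the library shared with WT, limma called 1 member and core minus cap was -0.050. With total reads as well, an alternative chosen after seeing the data, it called 29, with 0.64 for the core, 0.71 for the cap, -0.065 for core minus cap, 0.92 for RPN4 and 0.25 for RPN1, where all features had a median of 0.41. Leaving out each other library gave core medians of -0.080 to 0.13, cap medians of -0.14 to 0.17, core minus cap of -0.038 to 0.057, PRE6 at -0.10 to 0.40, PUP2 at -0.056 to 0.015 and RPT1 at -0.0040 to 0.31. The causes of these moves were not tested. The test of differences between strains called 0 members under every alternative run, and the shorter motif gave the same 27 promoters in number. Depth limits single genes least in the CMK tables and most in hrr25as, where a member had as few as 249 reads in a library.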
